A study of Mus musculus and synthetic construct with 15 samples.

Results

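The aMTF-p300 regions are 202 of the 3820 candidate regulatory regions carried by an adeno-associated virus (AAV) reporter library that was read out in the mouse heart. They were taken as the regions whose identifier begins with aMTF-p300 and carries no other selection tag. A further 23 regions that join this tag to another one were not counted as members. The identifier was read as atrial multi-transcription-factor regions without p300, which the labels do not spell out, and no occupancy data were analysed here against which the name could be checked.

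Enhancers are stretches of DNA that raise transcription from a promoter when transcription factors are bound to them. In heart muscle cells, factors of the GATA, MEF2, T-box, TEAD and NKX2-5 families often occupy the same enhancers, and regions bound by several factors are commonly chosen as enhancer candidates. p300 is a histone acetyltransferase and coactivator that such factors recruit, and its presence is widely used as a mark of active enhancers. In a massively parallel reporter assay, many regions are cloned into a common reporter, and each region's share of the reporter RNA is set against its share of the input DNA.

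Each region was 400 bp long. The AAV9 library was given to newborn wild-type mice (P0), and atria and ventricles were collected at P7. Counts per region were available for 5 libraries of atrial RNA, 5 of ventricular RNA and 5 of DNA from the AAV9 library itself. The labels name no second AAV library for any RNA group, and no untreated heart entered the comparison. Whether all RNA libraries came from the same AAV pool as the DNA libraries was not tested. The labels name cardiomyocytes as the cell type, while the design text says that the chambers were harvested. Only reporter counts were deposited for these samples, so the tissue could not be checked against marker genes. Nothing in the labels says that libraries of a group came from separate animals, so p-values measure the spread between these libraries.

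Total counts were 877773 in atrial replicate 1 and 1718563 to 2369985 in the other atrial libraries, 1271527 in ventricular replicate 1 and 2862596 to 3781726 in the other ventricular libraries, and 2312820 to 2958271 in DNA. Replicate 1 stood apart in both RNA groups: 32 members had no count in atrial replicate 1 and 30 in ventricular replicate 1, against 4 to 7 and 2 to 5 members in replicates 2 to 5. In DNA, 31 to 37 members had no count. Some results below are given with and without replicate 1, and others only with it.

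Of the 202 members, the group column of the deposited table calls 122 "MTF or P300", 43 "spMTF or spP300", 32 "TF3-4" and 5 "TF1-2"; these names are used as given. By midpoint, 102 members lay inside a protein-coding gene (exon and intron were not told apart), 68 lay within 100 kb of one, and 32 had no protein-coding gene within 100 kb, which is 15.8% of members against 10.4% of all regions. The 170 members with a gene had 143 different nearest genes. Actn4 (the cytoskeletal protein alpha-actinin-4) and Dst (the linker protein dystonin) were each nearest to 4 members, and Spata13 and Ctif each to 3. A nearest gene serves here as an address in mm10, the build of the files, and no effect of a region on that gene was measured.

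Sequence could be read for 2 members, those that overlapped a promoter window of the RefSeq table (GRCm38.p6, the same assembly as mm10). Both belong to the results below. One held some of the lowest RNA relative to DNA among members with at least 100 mean DNA counts. The other was higher in atrium than in ventricle. The first, inside Lrrc27, overlapped the start of the long non-coding RNA Gm32315 at chr7:139235041-139235126. The second, whose nearest protein-coding gene is Wnt7b (a secreted Wnt ligand), overlapped the start of the long non-coding RNA D130051D11Rik at chr15:85634545-85634645. Both stretches are printed on the plus strand, with capitals for the 50 bases that the annotation places inside the non-coding RNA.
Lrrc27 member: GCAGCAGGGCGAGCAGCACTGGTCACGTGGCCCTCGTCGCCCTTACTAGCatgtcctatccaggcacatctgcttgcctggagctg
Wnt7b member: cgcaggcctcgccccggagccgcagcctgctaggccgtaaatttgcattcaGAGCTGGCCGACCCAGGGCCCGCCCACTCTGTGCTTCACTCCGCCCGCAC
GC content was 62.8% over the 86 bases of the Lrrc27 stretch and 69.3% over the 101 bases of the Wnt7b stretch. Both strands were searched for 8 motifs: AGATAA (the site of GATA factors), TCACACCT (T-box), AAGTG (NKX2-5), CATTCC (TEAD), TCAAGGTCA (estrogen-related receptors), AGGTCA (core of nuclear receptor sites, which lies inside the preceding motif), and the MEF2 and CArG box consensus sequences. Neither stretch held a match, which says only that these letters are not in these windows. In the matching stretch of all 32851 promoter windows, AAGTG was present in 16.2% (Lrrc27 stretch) and 18.6% (Wnt7b stretch). CATTCC was present in 3.77% and 4.40%, AGGTCA in 4.46% and 5.41%, AGATAA in 2.53% and 3.04%, and each of the other motifs in at most 0.414%.

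Members took a larger share of reporter RNA than of the DNA library. They made up 6.34% ± 0.342 (SD, n = 5) of atrial counts, 6.40% ± 0.331 of ventricular counts and 4.36% ± 0.0641 of DNA counts. With replicates 2 to 5 only, the atrial and ventricular shares were 6.21% and 6.26%. The lowest RNA library, at 5.91%, lay above the highest DNA library, at 4.45%, and the atrial and ventricular ranges overlapped. The mean share was also above that of DNA for the other classes compared below: 10.3% and 9.13% in atrium and ventricle against 8.72% for aMTF+p300, 4.73% and 5.13% against 2.06% for vMTF-p300, and 11.8% and 13.0% against 10.3% for ESC-Neg. The ESC-Neg share in RNA replicate 1, 8.73% in atrium and 9.46% in ventricle, was under the DNA. A few regions carried much of that share. The Fhod3 member alone held 0.683% of atrial and 0.867% of ventricular counts against 0.0657% of DNA, and the Zc3hc1 member held 0.567%, 0.332% and 0.860%.

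The first comparison set atrial against ventricular RNA, which asks whether the regions drive the reporter more in one chamber. Members were on balance close to even: of the 137 tested, 22 gave more RNA in atrium, 15 gave more RNA in ventricle and 100 did not pass (edgeR's quasi-likelihood test, Benjamini-Hochberg adjusted p under 0.05 over all 2601 regions tested). Over all regions tested, 15.8% were called higher in atrium and 15.1% higher in ventricle, so the 22 members (16.1%) were near that background and the 15 members (10.9%) below it. Most differences were small. The median log2 difference of atrium over ventricle was 0.10 for members and 0.03 for all regions. Among the member calls, 4 in the atrial direction and 1 in the ventricular direction reached 2-fold. Over all 2601 regions tested, 127 and 79 calls did. A further 1 member in each direction reached 2-fold without passing the test. In 27 members the atrial and ventricular libraries did not overlap, against 23.0% of all regions tested, and all 27 were among the calls.

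The split depended on the scaling. When TMM factors were computed on the regions the group column calls Neg, the median of all regions moved by 0.16 on the log2 scale, and the counts of members became 32 in the atrial and 10 in the ventricular direction, beside 578 and 226 of all regions. With replicates 2 to 5 only, 19 of the 22 and 12 of the 15 members kept their call. Leaving out ventricular replicate 2 left 18 of the 22, the lowest number over the libraries left out in turn. The member median was 0.05 without atrial replicate 2, 0.06 without atrial replicate 3, and at most 0.11 over the libraries left out.

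For the regions higher in atrium, values below are CPM (each library's counts scaled by TMM to a common total), in order of replicates 1 to 5. Named regions are those with the largest changes among the calls without overlap, unless stated otherwise. A region 20288 bp from Msrb3 (a methionine sulfoxide reductase) at chr10:120760613-120761012 had 724, 583, 635, 585 and 584 CPM in atrium, 265, 278, 260, 317 and 261 CPM in ventricle, and 1136, 1128, 1236, 1023 and 1096 CPM in DNA. Every atrial library was above every ventricular one, and both chambers were below the DNA. The log2 difference was 1.19 ± 0.10 (SE; adjusted p = 4.14e-07).

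The Commd7 region (a COMM-domain protein gene) at chr2:153609585-153609984 had 1395, 1139, 1024, 1160 and 1948 CPM in atrium and 727, 558, 667, 583 and 753 CPM in ventricle. Atrial replicate 5 was the highest, and the chambers did not overlap (log2 difference 1.03 ± 0.16; adjusted p = 0.000237). Its DNA libraries, at 621 to 857 CPM, overlapped the ventricular ones, so that atrial RNA was above DNA (log2 ratio 0.80 ± 0.15) while ventricular RNA over DNA did not pass (log2 ratio -0.12 ± 0.10; adjusted p = 0.294).

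Inside Pgap3, whose product remodels the lipid of GPI anchors, a region at chr11:98394308-98394707 had 670, 493, 604, 560 and 457 CPM in atrium and 337, 259, 298, 272 and 262 CPM in ventricle. Both chambers were far above the 47.9 to 62.2 CPM of its DNA. The log2 difference between chambers was 0.98 ± 0.12 (adjusted p = 1.85e-05), and the log2 ratio over DNA was 3.29 ± 0.15 in atrium and 2.43 ± 0.12 in ventricle. Of the 8 named atrium-higher regions, this one had the largest ratio over DNA in both chambers.

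The other regions named in the atrial direction spanned high and low input. One inside Ppargc1b, which encodes the mitochondrial gene coactivator PGC-1 beta, at chr18:61321978-61322377 had 520, 539, 545, 559 and 662 CPM in atrium and 285, 339, 242, 294 and 362 CPM in ventricle (log2 difference 0.91 ± 0.12). The Zc3hc1 region at chr6:30355695-30356094, the member with the most DNA, had 5732, 6089, 5571, 5744 and 5550 CPM in atrium and 3848, 2871, 3293, 3247 and 3647 CPM in ventricle (0.78 ± 0.07). Its atrial libraries lay in a narrow band above the ventricular ones, and both were under the 9140 to 11965 CPM of DNA. The region near Tnfsf13b (the B-cell survival factor BAFF) at chr8:10045592-10045991 had 527 to 704 CPM in atrium and 303 to 377 CPM in ventricle, around its DNA at 468 to 524 CPM (0.84 ± 0.10). The region near Eno1b (an enolase gene) at chr18:48016051-48016450 ran from 204 to 293 CPM against 105 to 160 CPM (0.95 ± 0.16). The region near Wls, whose product carries Wnt proteins to the cell surface, at chr3:159782308-159782707 ran from 154 to 194 CPM against 84.8 to 132 CPM (0.71 ± 0.16). In all 5 of these regions the atrial and ventricular libraries were apart.

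The largest differences among the calls belonged to 2 regions whose chambers did overlap. These were named after their values were seen. A region inside Mgat5 (an enzyme that branches N-glycans) at chr1:127338986-127339385 had 344, 216, 143, 81.7 and 122 CPM in atrium and 58.2, 84.1, 51.4, 104 and 66.5 CPM in ventricle. Atrial replicate 1 was the highest, and atrial replicate 4 lay among the ventricular libraries. Its log2 difference was 1.32 ± 0.34 (adjusted p = 0.00946), and 0.91 with replicates 2 to 5 only (adjusted p = 0.0345; 0.000277 to 0.0345 over 18 alternatives). A region inside Slc10a6 (a transporter of sulfated steroids) at chr5:103620491-103620890 had 396, 243, 201, 107 and 179 CPM in atrium and 93.8, 74.9, 101, 135 and 73.3 CPM in ventricle. The pattern was alike, with replicate 1 the highest and replicate 4 within the ventricular range, and the log2 difference fell from 1.24 ± 0.29 to 0.95 with replicates 2 to 5 only (adjusted p = 0.0162; 9.00e-05 to 0.0211 over the alternatives). Part of both sizes therefore lay in atrial replicate 1, the shallowest library.

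The Wnt7b region whose sequence is shown above had a small difference on a deep count. It had 2261, 2147, 1976, 1963 and 2339 CPM in atrium, 1808, 1732, 1810, 1572 and 2007 CPM in ventricle, and 1976 to 2739 CPM in DNA. The chambers overlapped through ventricular replicate 5, and the log2 difference was 0.27 ± 0.08 (adjusted p = 0.0150). It was the smallest difference called among the members and was lost when library totals replaced TMM or when ventricular replicate 4 was left out.

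For the regions higher in ventricle, the clearest was inside Cilk1, which encodes a kinase of primary cilia, at chr9:78139419-78139818. It had 1298, 1365, 1438, 1383 and 1220 CPM in atrium, 2841, 2754, 2926, 2998 and 3166 CPM in ventricle, and 136, 179, 119, 193 and 172 CPM in DNA. The 3 groups were fully apart, and replicates within each chamber were close. The log2 difference of atrium over ventricle was -1.11 ± 0.07 (adjusted p = 2.13e-08). Among the calls, this was the one member with at least 2-fold more ventricular than atrial RNA.

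Intergenic regions came next. One at chr17:9895270-9895669, with no gene within 100 kb, had 1010, 1151, 1056, 1111 and 1300 CPM in atrium and 2099, 2065, 1823, 1715 and 1896 CPM in ventricle (log2 difference -0.75 ± 0.09). Another without a gene, at chr12:27183015-27183414, had 353, 284, 296, 275 and 275 CPM against 498, 516, 448, 492 and 481 CPM (-0.70 ± 0.11). A region 29600 bp from Tpra1 at chr6:88941640-88942039 had 508, 473, 481, 510 and 604 CPM against 1003, 720, 755, 934 and 907 CPM (-0.73 ± 0.11). All 3 had chambers without overlap, and the Tpra1 region had little DNA, at 22.2 to 43.8 CPM.

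Regions at Casq2 and Fhod3, both genes of muscle, were among the 15. A region inside Casq2, which encodes the calcium-binding calsequestrin of the sarcoplasmic reticulum, at chr3:102099305-102099704 had 1025, 1384, 1078, 1148 and 1020 CPM in atrium and 1626, 1623, 1801, 1458 and 1674 CPM in ventricle. The highest atrial library was just under the lowest ventricular one (log2 difference -0.52 ± 0.09; adjusted p = 0.000582). The Fhod3 region, inside a formin gene needed for sarcomere assembly, at chr18:24861576-24861975 had 7326, 6762, 6946, 6919 and 6551 CPM in atrium and 9696, 8794, 8351, 8506 and 8863 CPM in ventricle. Chambers were apart, with a difference of -0.34 ± 0.05 (adjusted p = 0.000112).

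The remaining named ventricle-higher regions lay near Atp6v0a1 (a subunit of the vacuolar proton pump), Itprid2 and Dst. The Atp6v0a1 region at chr11:101064022-101064421 had 2445 to 2783 CPM in atrium and 3624 to 4061 CPM in ventricle (log2 difference -0.54 ± 0.06). The Itprid2 region at chr2:79567404-79567803 had 349 to 524 CPM and 579 to 708 CPM (-0.54 ± 0.11), on a DNA level of 8.76 to 27.6 CPM. Both were without overlap. The Dst region at chr1:34326829-34327228 had 144, 129, 155, 161 and 114 CPM in atrium and 245, 243, 184, 187 and 176 CPM in ventricle (-0.54 ± 0.16; adjusted p = 0.0185). Ventricular replicates 1 and 2 were its highest libraries, and its adjusted p was 0.0590 without ventricular replicate 1, 0.0567 without ventricular replicate 2, 0.0716 with replicates 2 to 5 only and 0.0991 with scaling on Neg regions, within a range of 0.00667 to 0.0991 over the alternatives.

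**Figure D1:**
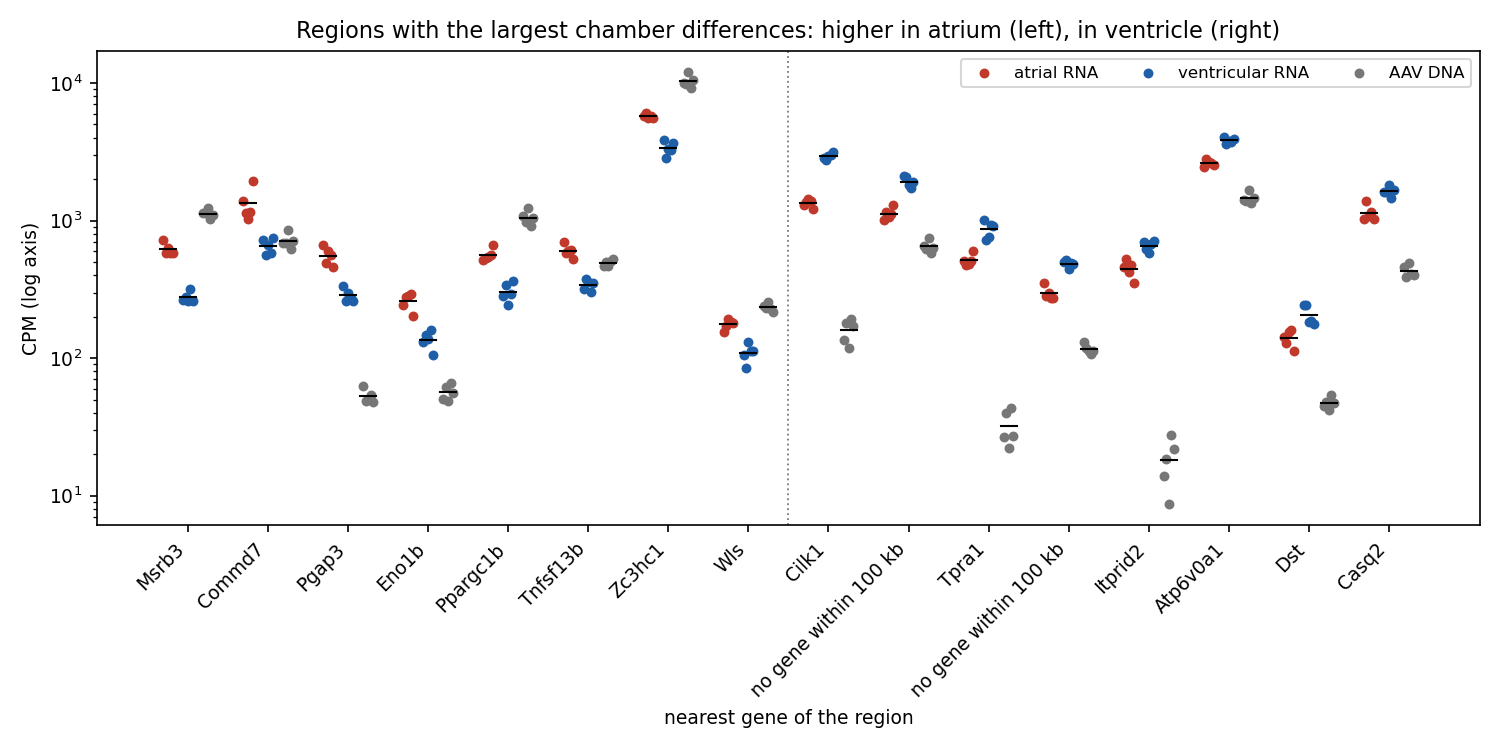
CPM on a log axis for the 16 regions with the largest chamber differences among calls without overlap, 8 higher in atrium (left of the dotted line) and 8 higher in ventricle (right); each point is 1 library of atrial RNA, ventricular RNA or AAV DNA, and bars are means of 5. Atrial and ventricular points are apart in each region, while the DNA lies above both chambers for regions such as Msrb3 (1023 to 1236 CPM) and far below them for regions such as Itprid2 (8.76 to 27.6 CPM).

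All 15 ventricle-higher members had log2 RNA over DNA above 0 in both chambers, from 0.69 to 4.50 in atrium and from 1.40 to 5.16 in ventricle. The 22 atrium-higher members ran from -1.77 to 3.90 in atrium and from -2.03 to 3.40 in ventricle, with medians of 0.18 and -0.23. The 3 comparisons share libraries, so these values are given side by side and not as separate evidence. The same ranges were not computed for the chamber calls over all regions, so they are not shown to be a trait of this class. Median mean DNA count was 550.5 for the atrium-higher and 250.6 for the ventricle-higher members.

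**Figure D2:**
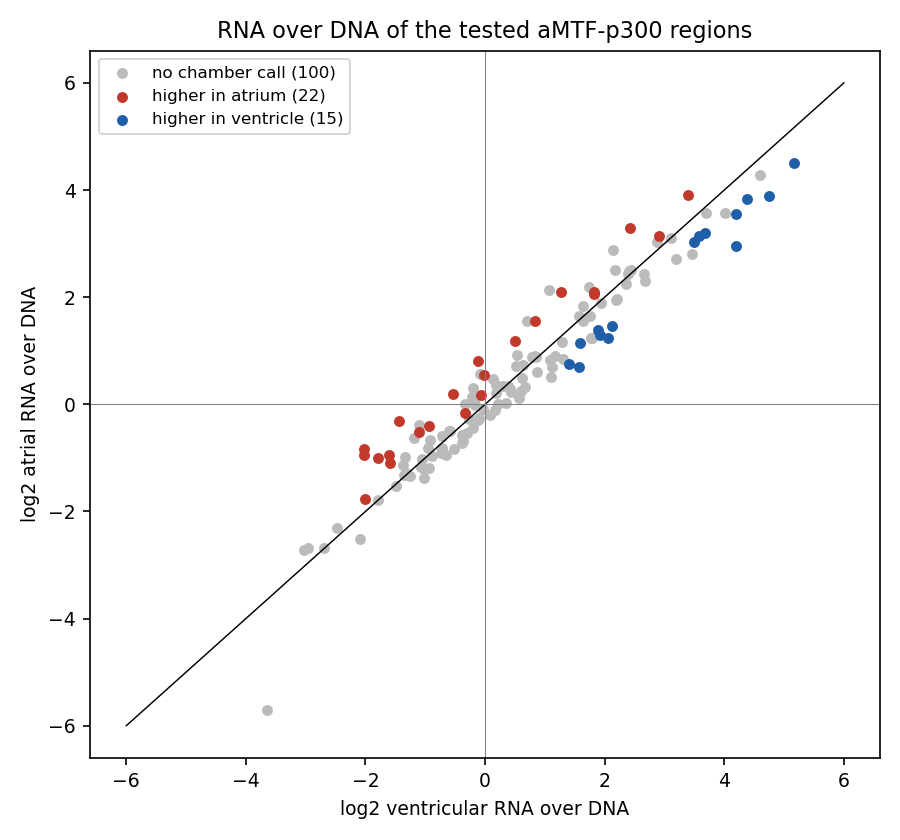
Log2 atrial RNA over DNA (vertical) against log2 ventricular RNA over DNA (horizontal) for the 137 tested members, coloured by the chamber call; the line marks equal values, and both axes share the DNA libraries. The 15 members higher in ventricle lie right of and above 0 on both axes, and the 22 higher in atrium lie on both sides of 0.

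Chamber calls were spread unevenly over the values of the group column. Of 25 tested spMTF or spP300 members, 9 had more RNA in atrium and 1, the Itprid2 region, more in ventricle (median log2 difference 0.23). Over all regions of that group value, 84 of 520 were called in the atrial direction and 102 in the ventricular one (median 0.02). That comparison took in regions of every identifier class, not atrial ones alone. No separate count was made for aMTF+p300 regions of that value. Of 87 tested MTF or P300 members, 11 passed in the atrial and 12 in the ventricular direction (median 0.04), against 238 and 189 of 1170 regions (median 0.08). TF3-4 members had 2 calls in each direction of 21 tested, beside 42 atrial and 26 ventricular calls of 214 regions. Of the 4 tested TF1-2 members 0 passed by edgeR, with 0 also at an unadjusted p under 0.05 and by DESeq2, beside 33 and 18 of 228 regions. The difference between group values was not tested.

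Within replicates, the median log2 difference of the spMTF or spP300 members was 0.55, 0.22, 0.36, 0.18 and 0.31 for replicates 1 to 5, the highest in replicate 1. For the MTF or P300 members it was -0.09, -0.04, 0.03, 0.08 and -0.05. The spMTF or spP300 medians were above the MTF or P300 ones in each replicate. With replicates 2 to 5 only, the spMTF or spP300 counts were 7 and 1 with a median of 0.16. The median ran from 0.12 (without ventricular replicate 5) to 0.32 (without atrial replicate 3) with single libraries left out, and was 0.13 without atrial replicate 4. With scaling on Neg regions they were 11 and 1, beside 17 and 8 for MTF or P300. The 9 atrium-higher spMTF or spP300 members were those of Mgat5, Slc10a6, Eno1b, Tnfsf13b, Zc3hc1, Wls, Fam118a, Cnnm2 and Nrp2. The calls of Nrp2 and Cnnm2 were lost with replicates 2 to 5 only.

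**Figure D3:**
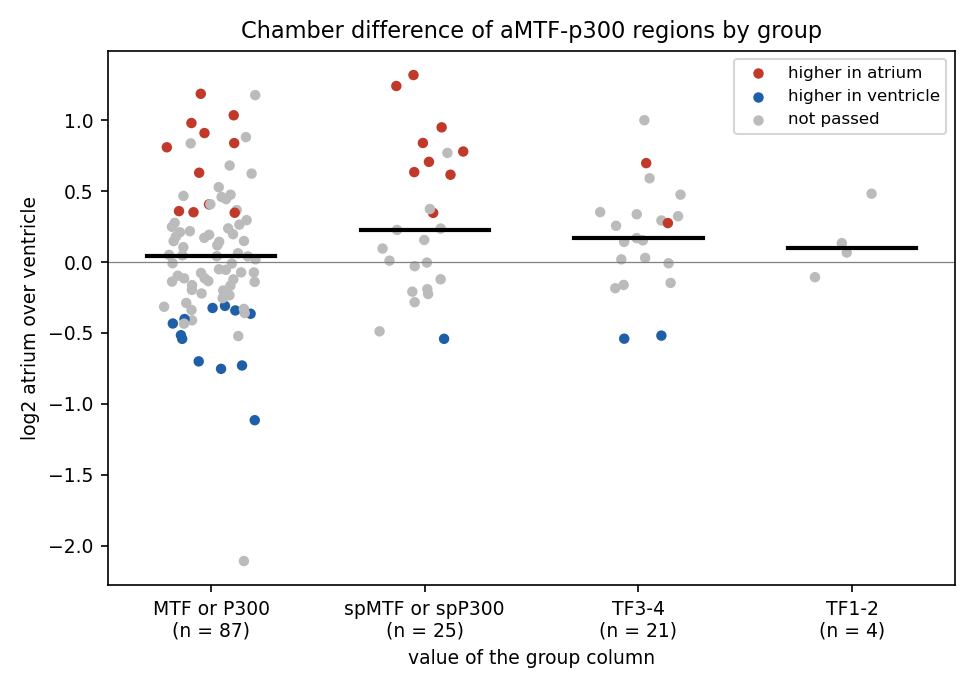
Log2 atrium over ventricle of the 137 tested members by their value in the group column, with 1 point per region, colour for the call and a black bar at the median. The 25 spMTF or spP300 members have 9 red and 1 blue point and a median of 0.23, and the 87 MTF or P300 members have 11 and 12 and a median of 0.04.

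Beside the related classes, the aMTF-p300 regions had a median chamber difference between those of the aMTF+p300 and vMTF-p300 regions. Among 218 tested aMTF+p300 regions, 52 passed in the atrial and 22 in the ventricular direction, with a median log2 difference of 0.20. Among 123 tested vMTF-p300 regions, 18 did so in the atrial and 33 in the ventricular direction, with a median of -0.18. The ESC-Neg regions, which serve as controls by their name, had 22 and 70 of 540 and a median of -0.12. The member median was 0.01, 0.00, 0.08, 0.16 and 0.03 in replicates 1 to 5, between the aMTF+p300 median (0.15 to 0.22) and the vMTF-p300 median (-0.28 to -0.12) in each. These are descriptions of lists, and no test of a difference between classes was made.

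The second comparison set RNA against the AAV DNA, which asks how much reporter RNA each region gave for its amount in the library. In atrium 61 members had more RNA than DNA and 40 had less, with 36 not passing. Over all regions tested 38.4% had more and 36.3% had less atrial RNA than DNA, against 44.5% and 29.2% of members. In ventricle 67 members had more and 42 less, with 28 not passing, beside 43.4% and 37.8% of all regions and 48.9% and 30.7% of members. Median log2 RNA over DNA was 0.36 for members and 0.04 for all regions in atrium, and 0.41 and 0.13 in ventricle. The vMTF-p300 medians were higher, at 1.06 in atrium and 1.43 in ventricle. Those of aMTF+p300 were 0.30 and 0.15, and those of ESC-Neg -0.28 and -0.08. In atrium, 61.8% of vMTF-p300, 47.2% of aMTF+p300 and 26.3% of ESC-Neg regions were called with more RNA than DNA. In ventricle the shares were 67.5%, 44.5% and 36.1%.

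The medians of members and of all regions moved with the scaling. With library totals they became 0.69 for members and 0.37 for all regions in atrium. The difference between members and all regions moved less, from 0.33 to 0.32. The 0 of a ratio is thus set by the scaling. Under TMM the median of all regions was 0.04 in atrium and 0.13 in ventricle. A ratio above 0 does not stand for activity above an empty reporter.

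Among members with at least 100 mean DNA counts, the highest ratios were shared by both chambers. A region inside Bcas1 at chr2:170365142-170365541 had 865, 826, 991, 1016 and 787 CPM in atrium, 508, 618, 585, 588 and 632 CPM in ventricle, and 42.8, 50.5, 49.1, 73.7 and 61.9 CPM in DNA. No RNA library came near the DNA, and atrium was above ventricle throughout. Its log2 ratio over DNA was 3.90 ± 0.16 in atrium (adjusted p = 7.22e-11) and 3.40 ± 0.14 in ventricle (adjusted p = 5.70e-13). A region 66550 bp from Cbln4, which encodes a secreted organiser of synapses, at chr2:171969586-171969985 had 1018, 875, 1027, 939 and 812 CPM in atrium and 901, 997, 995, 964 and 902 CPM in ventricle, over 50.8 to 96.7 CPM in DNA. The chambers overlapped fully (log2 difference -0.01 ± 0.08; adjusted p = 0.944), at 3.57 ± 0.17 and 3.70 ± 0.13 over DNA.

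The Nck2 region (an adaptor protein of tyrosine kinase signalling) at chr1:43426552-43426951 had 1138, 1164, 1130, 1169 and 991 CPM in atrium and 1597, 1410, 1409, 1401 and 1467 CPM in ventricle, over 99.9 to 124 CPM in DNA. Its log2 ratios were 3.19 ± 0.10 and 3.67 ± 0.09, with ventricle above atrium in all libraries (log2 difference -0.36 ± 0.07; adjusted p = 0.00154, and 0.0756 with scaling on Neg regions, the one alternative that ended the call). A region at chr8:28367401-28367800 with no gene within 100 kb reached 3.15 ± 0.11 in atrium and 2.92 ± 0.08 in ventricle. The Fhod3 region combined a high ratio with a deep count: over DNA of 760, 775, 909, 724 and 757 CPM its log2 ratio was 3.04 ± 0.08 in atrium and 3.49 ± 0.09 in ventricle. Cilk1 had the largest ventricular ratio of this set, 4.20 ± 0.13, against 2.96 ± 0.14 in atrium.

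At the other end, the lowest log2 ratios, -5.70 in atrium and -3.64 in ventricle, belonged to members with 10 to under 100 mean DNA counts. Among members with at least 100, the lowest was a region inside Atp2b2 (a plasma membrane calcium pump) at chr6:113852306-113852705. It had 173, 109, 95.6, 73.6 and 98.9 CPM in atrium and 73.4, 80.4, 95.9, 89.5 and 76.7 CPM in ventricle. Its DNA libraries had 648, 624, 708, 615 and 681 CPM. All RNA libraries were well under the DNA, and atrial replicate 1 was the highest of them. The log2 ratios were -2.69 ± 0.19 in atrium (adjusted p = 1.66e-08) and -2.97 ± 0.10 in ventricle (adjusted p = 3.99e-14). Inside Cavin1, a gene for the coat of caveolae, a TF1-2 region at chr11:100968952-100969351 reached -2.68 ± 0.28 and -2.69 ± 0.14, again with atrial replicate 1 (158 CPM) above replicates 2 to 5 (49.6 to 76.7 CPM).

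The Lrrc27 region at chr7:139234727-139235126, which holds the Gm32315 start site shown above, had 456, 388, 382, 368 and 414 CPM in atrium, 340, 310, 305, 330 and 370 CPM in ventricle, and 1825, 1712, 2152, 1743 and 1815 CPM in DNA. Both chambers were low, at -2.30 ± 0.09 and -2.48 ± 0.09 on the log2 scale, and the chamber difference of 0.29 ± 0.11 did not pass (adjusted p = 0.0526). The region inside Slc44a2 (a choline transporter-like protein) at chr9:21332455-21332854 was at -1.79 ± 0.22 and -1.80 ± 0.24, with 14.9 to 26.6 CPM in atrium over 55.2 to 62.8 CPM in DNA. Mgat5 was among the lowest in ventricle alone, at -2.03 ± 0.17 against -0.83 ± 0.31 in atrium.

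Members with large input differed in their ratios. The Bach2 region (a transcription factor of lymphocytes) at chr4:32337673-32338072 had 4487 to 5104 CPM in atrium, 4620 to 5440 CPM in ventricle and 2799 to 3571 CPM in DNA, at ratios of 0.48 ± 0.07 and 0.61 ± 0.08. The region 9202 bp from Nkx2-6, a homeobox gene of the NK2 family, at chr14:69162400-69162799 had 3397, 2848, 2148, 2594 and 2342 CPM in atrium, 3306, 2011, 1749, 1705 and 1796 CPM in ventricle and 5004 to 6279 CPM in DNA. Replicate 1 was its highest library in both chambers, and its ratios were -1.14 ± 0.12 and -1.38 ± 0.17. Bach2 and Nkx2-6 were named for their share of the counts.

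Over the class, however, ratios fell as the DNA count rose, and the same held for all regions. The DNA libraries that set this count are also the denominator of the ratios, so a fall is partly built in. Members with a mean DNA count of 10 to under 100 had median log2 ratios of 1.56 in atrium and 1.43 in ventricle (all regions 1.21 and 1.43), those from 100 to under 300 had 0.34 and 0.39 (all regions 0.20 and 0.28), and those at 300 or more had -0.41 and -0.59 (all regions -0.66 and -0.69). Chamber calls also moved with depth. In the lowest tier 0 of 50 members were called higher in atrium by edgeR (3 at an unadjusted p under 0.05, 3 by DESeq2) and 5 higher in ventricle, in the middle tier 6 and 3 of 32, and in the highest 16 and 7 of 55. For all regions the tiers gave 53 and 104 of 854, 69 and 97 of 570, and 290 and 191 of 1177. The part of DNA depth in the members' ratios was not tested.

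**Figure D4:**
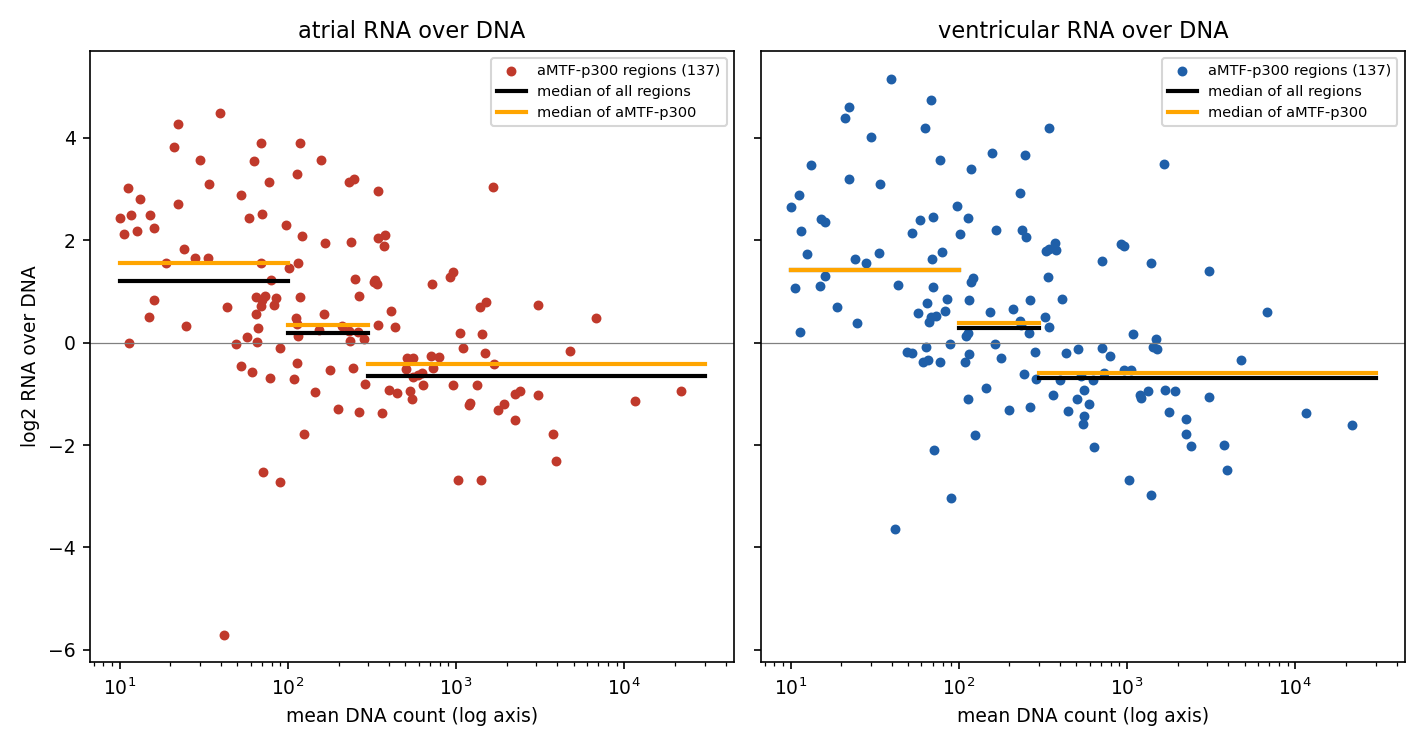
Log2 RNA over DNA of the 137 tested members against their mean DNA count (log axis), in atrium (left) and ventricle (right); orange bars are member medians and black bars medians of all regions in the 3 tiers. The vertical and horizontal axes share the DNA libraries. Both medians fall from the lowest tier (1.56 and 1.21 in atrium) to the highest (-0.41 and -0.66). In the lowest ventricular tier the bars coincide at 1.43.

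Neighbouring tiles of an element could differ widely. The class covered 178 elements, and 24 of them had 2 member tiles, side by side and together 800 bp long. Both tiles were tested in 9 elements. Over DNA, the tiles were called in opposite directions in 2 of the 9 elements in atrium and in 3 in ventricle. The median size of the difference between tiles was 1.22 in atrium and 1.48 in ventricle on the log2 scale. Between chambers it was 0.29, with 1 tile called in 1 element and no tile in 8. All tested members also ranged widely over DNA, with log2 quartiles of -0.59 and 1.83 in atrium and -0.71 and 1.81 in ventricle. No such differences were computed for other tiled elements or between members of different elements. Whether neighbouring tiles differ more or less than other regions was not tested.

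The widest contrast lay inside Spata13, which encodes an exchange factor for small GTPases. The tile at chr14:60741017-60741416 had 127, 49.4, 55.3, 57.9 and 65.9 CPM in atrium, 113, 77.8, 48.4, 89.2 and 90.4 CPM in ventricle, and 160 to 174 CPM in DNA. The next tile, at chr14:60741417-60741816, had 156, 186, 204, 182 and 175 CPM, 280, 215, 205, 197 and 244 CPM, and 12.4 to 15.8 CPM. RNA was under the DNA in the first tile and far over it in the second. Log2 ratios were -1.37 ± 0.24 and 3.58 ± 0.16 in atrium, and -1.03 ± 0.17 and 4.01 ± 0.15 in ventricle; DNA counts differed as well, with means of 362.4 and 30.0. The Atp6v0a1 tiles had more even DNA, with means of 1334.4 and 3081.4 counts. There the tile 102 bp from the gene, at chr11:101063622-101064021, was at -0.82 ± 0.09 in atrium and -0.95 ± 0.09 in ventricle, and the next tile was at 0.74 ± 0.07 and 1.40 ± 0.08.

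**Figure D5:**
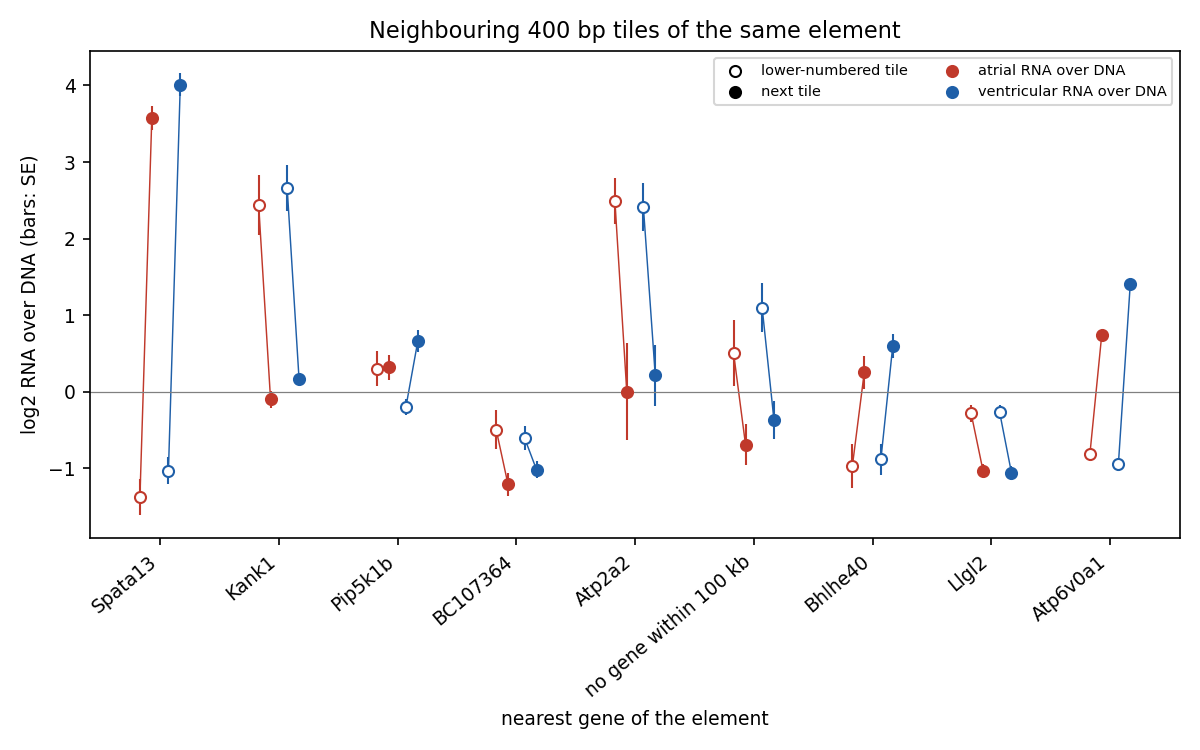
Log2 RNA over DNA (bars: SE) of both tiles in the 9 elements with 2 tested members, open points for the tile with the lower number and filled points for the next, in atrium and in ventricle; an element is named by the gene nearest to its first tile. The Spata13 tiles run from -1.37 to 3.58 in atrium, and the Atp6v0a1 tiles from -0.82 to 0.74.

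Cardiac gene lists gave few members to describe. Of the 24 genes on the atrial list, 1 was nearest to a member. It was Ttn (the giant sarcomeric protein titin, also on the sarcomere list), whose region was not tested. Of the 17 ventricular genes 1 was nearest to a member, Esrrg (a nuclear receptor of energy metabolism). Its region did not pass in any comparison (log2 difference between chambers -0.07 ± 0.37). None of the 22 cardiac transcription factor genes was nearest to a member. The ion channel and calcium list had 3 of 22 genes, with 1 call in the ventricular direction (Casq2) and 0 in the atrial one by edgeR, also 0 at an unadjusted p under 0.05 and by DESeq2. The Ryr2 region (the calcium release channel) was at 0.47 ± 0.39 and the Atp2a2 region (the calcium pump SERCA2) at 0.19 ± 0.34 between chambers, and the Atp2a2 region had more RNA than DNA in both (2.49 ± 0.31 and 2.41 ± 0.31). From the sarcomere list, the region in Myom2 (the M-band protein myomesin 2) was at 0.37 ± 0.18 between chambers, which did not pass (adjusted p = 0.145). Over all 3820 regions, 45 were nearest to a listed atrial gene, 33 to a ventricular gene, 35 to a transcription factor gene and 28 to an ion channel or calcium gene. There the ion channel list had 6 atrial and 4 ventricular calls of 21 tested.

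The 65 members under a mean of 10 DNA counts were not tested, and 22 of them had no DNA count in any of the 5 libraries. All 22 nevertheless had both atrial and ventricular counts, and 6 of them had any count in RNA replicate 1 of either chamber. The untested members held 0.00575% of DNA counts, 0.456% ± 0.0262 of atrial counts (SD, n = 4) and 0.494% ± 0.0150 of ventricular counts in replicates 2 to 5, but 0.122% and 0.103% in replicate 1 of atrium and ventricle. A count of 0 allows up to 3 counts, or 1.01 to 1.30 CPM in the DNA libraries.

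The clearest case was a region 23720 bp from Azin1 (an inhibitor of the polyamine regulator antizyme) at chr15:38542815-38543214, chosen after its values were seen. It had 0, 1199, 1198, 1268 and 1076 CPM in atrium, 0.727, 1339, 1398, 1562 and 1691 CPM in ventricle, and 1 count in the 5 DNA libraries together. RNA replicates 2 to 5 were high in both chambers, and replicate 1 and the DNA were at or near 0. A member inside Actn4 at chr7:28925565-28925964 had the same shape at a lower level, with 0, 119, 77.2, 92.1 and 80 CPM in atrium, 0, 116, 121, 102 and 144 CPM in ventricle and at most 5.06 CPM in DNA. The Ttn region at chr2:76806355-76806754 was different: it had 37.4 to 56.1 CPM in atrium and 33.8 to 52.0 CPM in ventricle with replicate 1 included, over 0 to 0.584 CPM in DNA. For these members RNA over DNA has no reliable denominator, and the source of the gap between replicate 1 and the other RNA libraries was not tested.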

How the data were processed

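Reporter counts came from 15 libraries, 5 each of atrial RNA, ventricular RNA and AAV9 library DNA, grouped and numbered by the labels. The authors deposited whole-number counts per 400 bp region, not normalized. Per the submitters' processing notes, cutadapt 2.5 and Bowtie2 2.3.4.3 were used with mm10, and per the labels' protocols the primer carried a molecular identifier. No source used here says if reads or collapsed molecules were counted, so zero-count limits cover counting error only.

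The fits took the regions that averaged 10 or more DNA counts (2601 of 3820; 137 of 202 members). Each pair of groups was fitted with edgeR 4.0.16 in R 4.3.3 (TMM, robust quasi-likelihood test, Benjamini-Hochberg adjustment over all regions tested); SEs were taken from the fold change and the F statistic. The fit was tested on simulated data. DESeq2 1.42.0, other scalings, filters and replicate sets were alternatives.

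Named regions were, per direction, the 8 largest chamber differences without overlap, the 6 highest and 4 lowest RNA over DNA ratios without overlap at 100 or more DNA counts, and up to 3 calls per gene list. Members and lists were chosen with earlier results of these data known. Same-numbered atrial and ventricular libraries deviated together (correlations 0.814 for replicate 1 and 0.226 to 0.246 for replicates 2 to 5), which met the criterion of 0.1 for pairs, although atrial replicates 3, 4 and 5 correlated best with other numbers; with DNA they were not (-0.033 to 0.060). Genes are RefSeq protein-coding genes of GRCm38.p6. Sequence was read from the promoter table; motif counts over all regions were not made. One result of the sarcomere list is not reported here.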

Additional observations from a re-analysis of the deposited data

Results flagged for a closer look

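Among 81 groups of 5 libraries over the 27 named regions, 2 had a library far from the other 4. For groups not picked by their values, chance sets about 1 in 20 apart in this way. Most of these regions were picked for groups that did not overlap, so that rate is no measure for them. For the Nck2 region, atrial replicate 5 had 991 CPM, below the other atrial libraries at 1130 to 1169 CPM. For the Lrrc27 region, DNA replicate 3 had 2152 CPM, above the other DNA libraries at 1712 to 1825 CPM. Neither library was replicate 1.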

How the results depend on the processing

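Of the values recomputed for named regions, 660 kept their direction and side of the threshold, 4 lost the call (all of them the Dst region between chambers) and 0 reversed. Regions named for their RNA over DNA ratio are not among these chamber values; with them, 5 of 394 chamber values lost the call, 4 of Dst and 1 of Nck2 (adjusted p = 0.0756 with scaling on Neg regions). A 2-fold minimum left 4 atrium-higher and 1 ventricle-higher members, 19 with less atrial and 27 with less ventricular RNA than DNA. Over all 2601 regions tested it left 127, 79, 543 and 560. Without the DNA filter, 113 members had more atrial and 113 more ventricular RNA than DNA. A minimum of 100 DNA counts left 23 with less atrial RNA and gave 42 of 87 members with more ventricular RNA. The cause was not tested. The chamber median became 0.25 with scaling on Neg regions and 0.16 without the filter, and ran from 0.05 to 0.11 with single libraries left out. Median atrial RNA over DNA became 0.69 with library totals, 0.77 on Neg regions, 1.20 without the filter, 0.44 with replicates 2 to 5 only, and 0.36 to 0.53 with single libraries left out. The ventricular median became 0.61, 0.57 and 1.34 under the first 3 of these. It was 0.33 with replicates 2 to 5 only, 0.21 with at least 100 DNA counts, and 0.30 to 0.50 with single libraries left out. With a replicate block for the same-numbered atrial and ventricular libraries, 24 members passed in the atrial and 15 in the ventricular direction. Of the main calls, 22 of 22 and 14 of 15 were kept, and the call lost was that of Zfp407. For RNA over DNA, where numbers did not pair libraries, the replicate block gave 59 and 40 members in atrium and 64 and 42 in ventricle. The causes of these shifts were not tested. Except at the 2-fold minimum, these member counts are given without the counts over all regions.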
